A study of Caenorhabditis elegans with 2 samples.

Results

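Where the tagged worm transcription factor FOS-1 was mapped around its own gene, fos-1, and around the gene of its partner, jun-1, is described here from chromatin immunoprecipitation and sequencing (ChIP-seq) of Caenorhabditis elegans. The genes were chosen by name, 2 of 19985 protein-coding genes in the WBcel235 annotation. For each, every region that the authors listed from 20 kb before to 20 kb after the gene was taken, from 4 deposited lists: 1 for each replicate, a pooled list made from both, and an IDR list (irreproducible discovery rate), which keeps regions by how alike they rank in the replicates. The samples were 2 biological replicates of 1 group, whole first-stage (L1) larvae of mixed sex and unknown age from strain OP304, taken as separate biosamples. OP304 carries the unc-119 allele ed3 on chromosome III and the integrated transgene wgIs304, which adds eGFP-tagged fos-1. No control group was compared, so all values describe this strain alone. The promoter that drives the transgene, its copy number and the stretch of DNA it holds are not given in these sources. Whole larvae mix all tissues, so a region bound in a few cells cannot be told apart from one bound weakly in many.

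Fos and Jun proteins are basic leucine zipper (bZIP) factors that pair through their zippers and bind DNA as the dimer called AP-1. The best known AP-1 site is the 7-base word TGACTCA, whose reverse complement is TGAGTCA; the related 8-base word TGACGTCA is best known from CREB and ATF dimers. In worms, fos-1 is needed for the anchor cell to breach the basement membrane during vulval development, and fos-1 and jun-1 act together in the ovulation of the adult gonad. In mammals, Jun proteins are activated by Jun kinases of the MAP kinase family, and the JUN gene is a known target of AP-1.

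The sequences below come from both genes. For jun-1 they are the DNA before 4 transcript starts with listed regions, and that around the summit closest to an AP-1 site. For fos-1 they are 2 stretches that hold AP-1 sites but lie in no listed region. Each holds at least 1 of the words marked below. The 240 bp before T24H10.7f.1 and T24H10.7i.1, starts that also had listed regions, hold none and are not printed. The printed sequences are from the RefSeq genome sequence of WBcel235, plus strand, on which both genes run left to right. Capitals mark AP-1 sites, TGACGTCA, CACGTG (the E-box of many other factors) and GAGAGAG, each on either strand. None of the printed bases lies in an exon of a protein-coding gene.
jun-1 before T24H10.7a.1, II:9112917-9113156: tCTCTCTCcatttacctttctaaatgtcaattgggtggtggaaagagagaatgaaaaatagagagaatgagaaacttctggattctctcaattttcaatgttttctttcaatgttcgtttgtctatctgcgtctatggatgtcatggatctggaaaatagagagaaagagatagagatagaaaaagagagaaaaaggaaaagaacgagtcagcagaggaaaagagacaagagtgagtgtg
jun-1 before T24H10.7b.1, II:9116377-9116616: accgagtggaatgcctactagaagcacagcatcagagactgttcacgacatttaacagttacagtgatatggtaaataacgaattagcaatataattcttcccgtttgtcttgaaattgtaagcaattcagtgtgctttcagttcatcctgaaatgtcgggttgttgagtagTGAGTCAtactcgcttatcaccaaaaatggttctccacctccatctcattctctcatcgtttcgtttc
jun-1 around the summit before T24H10.7h.1, II:9119545-9119645: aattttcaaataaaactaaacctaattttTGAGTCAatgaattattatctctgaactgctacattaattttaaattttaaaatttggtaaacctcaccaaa
jun-1 before T24H10.7d.1, II:9127097-9127336: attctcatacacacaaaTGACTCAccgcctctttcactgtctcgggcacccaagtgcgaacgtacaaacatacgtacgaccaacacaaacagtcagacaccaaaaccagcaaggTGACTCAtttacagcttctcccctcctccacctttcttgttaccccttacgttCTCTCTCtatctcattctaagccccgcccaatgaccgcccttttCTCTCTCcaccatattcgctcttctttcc
jun-1 before T24H10.7c.1, II:9130519-9130758: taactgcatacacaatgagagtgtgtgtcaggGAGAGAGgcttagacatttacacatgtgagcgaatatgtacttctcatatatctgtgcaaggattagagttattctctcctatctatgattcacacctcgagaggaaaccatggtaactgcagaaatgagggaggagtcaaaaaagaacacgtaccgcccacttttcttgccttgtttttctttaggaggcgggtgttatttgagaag
fos-1 before F29G9.4a.2, V:6007828-6008067: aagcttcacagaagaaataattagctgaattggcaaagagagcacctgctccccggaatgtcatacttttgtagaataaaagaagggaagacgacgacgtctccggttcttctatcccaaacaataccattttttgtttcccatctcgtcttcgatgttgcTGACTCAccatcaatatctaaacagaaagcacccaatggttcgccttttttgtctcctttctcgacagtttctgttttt
fos-1 within the third intron, V:6012264-6012390: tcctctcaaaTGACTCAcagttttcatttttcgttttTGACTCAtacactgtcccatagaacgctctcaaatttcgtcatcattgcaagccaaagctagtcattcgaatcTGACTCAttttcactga

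A value called signal stands for the strength of each listed region. It is the authors' own score, and its scaling is not stated, so regions were compared between lists by overlap and by rank, with rank 1 the highest signal. The pooled list held 20363 regions, or 1 per 4.93 kb of nuclear genome, with a median signal of 17.1. The lists of replicates 1 and 2 held 29801 and 23483 regions, with median signals of 9.60 and 8.0. The IDR list held 1895 regions, which were exactly the 1895 with the highest signal in the pooled list, down to a signal of 42.5. The lists give no read counts, so the depth is unknown, and both replicates were called against the same control file. Regions of the replicate and pooled lists include weak ones that the authors passed on as peaks and background.

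At jun-1 (WBGene00012005, T24H10.7, II:9113157-9132231, plus strand) regions were listed along the whole gene, many of them weak, with 1 dominant region at the first transcript start. Around fos-1 (WBGene00001345, F29G9.4, V:6003601-6016087, plus strand) the lists were nearly empty. From 20 kb before to 20 kb after, the pooled list held 29 regions for jun-1 and 1 for fos-1, against a median of 8.0 over 19973 nuclear protein-coding genes with the same flanks. As many as at jun-1 were found around 0.165% of these genes, and as few as at fos-1 around 6.62%. The IDR list, in which the counts were near the background, held 2 regions for jun-1, and 21.7% of genes had as many, and 0 for fos-1, as for 50.1% of genes.

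Both replicates gave this contrast. Replicate 1 listed 37 regions around jun-1, a number reached by 0.190% of genes, and 1 around fos-1, where 3.01% of genes had as few. Replicate 2 listed 25 around jun-1, reached by 0.701% of genes, and 2 around fos-1, where 4.39% had as few. Neighbouring genes share regions, so these shares describe the genome and are not a test. Because the windows grow with the gene, long genes such as these, 19.1 kb for jun-1 and 12.5 kb for fos-1, collect more regions.

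**Figure D1:**
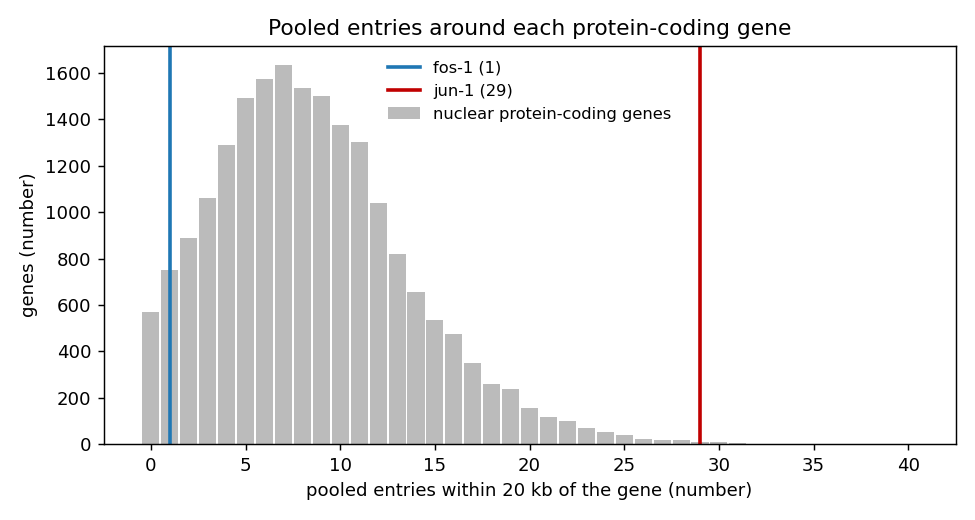
Number of pooled regions within 20 kb of each nuclear protein-coding gene (horizontal axis) against the number of genes (vertical axis, grey bars). The blue line marks fos-1 with 1 region and the red line marks jun-1 with 29, in the thin right tail.

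The dominant region at jun-1, II:9112892-9113224, had its summit 86 bp before the 5' end of transcript T24H10.7a.1, the longest form. In the pooled list its signal was 378 and its rank 8. In replicate 1 it was listed at II:9112917-9113203 with a signal of 262 and rank 10, and in replicate 2 at II:9113029-9113149 with a signal of 123 and rank 21. It was thus among the strongest regions of the genome in each replicate, and its summits lay close together, at -103 bp in replicate 1, -86 bp in the pooled list and -70 bp in replicate 2. Positions are given relative to the 5' end named, with negative values upstream. The region covered the printed bases before T24H10.7a.1, whose GC content was 36.7%, and reached into the first exon.

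The other transcripts of jun-1 start inside the gene. A promoter window was taken from 1000 bp before to 200 bp after each annotated 5' end. Of the 9 starts of jun-1, 8 had a pooled summit in this window, against 35.2% of the 29784 starts of all protein-coding genes. Of the 8 internal starts of jun-1, 7 had one, against 40.2% of 9811 internal starts in the genome. In replicate 1, 8 of the 9 starts had a summit, against 42.8% of all starts, and 7 of the 8 internal ones, against 47.2%. In replicate 2, 7 of the 9 had one, against 37.0%, and 6 of the 8 internal ones, against 41.6%. In the IDR list, 2 of the 9 had one, against 7.67%, and 1 of the 8 internal ones, against 7.83%. The windows cover 48.4% of jun-1, and close starts share summits.

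A closer background is 253 genes of 10 kb or more with at least 5 starts. Among these, 4.35% had as high a share of starts with a pooled summit as jun-1, and 20.6% had none at any start, as was the case for fos-1. All 6 jun-1 starts with an annotated leader before the first coding base had a summit in the pooled list and in each replicate, against 39.0% of all such starts in the pooled list, 46.7% in replicate 1 and 40.4% in replicate 2. The other 3, of transcripts T24H10.7h.1, T24H10.7i.1 and T24H10.7g.1, begin at the first coding base and have no annotated leader. The start of T24H10.7g.1 was the 1 without a summit in any of the lists, and the nearest pooled one lay at -1028 bp.

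The second IDR region of jun-1 lay at the last start. II:9130434-9130773 had its summit at -155 bp of T24H10.7c.1, with a pooled signal of 45.6 and rank 1695. Replicate 1 listed it with a signal of 33.3 at rank 1350 and replicate 2 with 14.0 at rank 2792. T24H10.7c.1 is the shortest form, with 3 exons. The summit also lay at -1059 bp of C16D2.1, the next gene on the same strand, whose start lies inside jun-1.

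A pair of regions fell just below the lowest IDR signal. II:9120350-9120689, at -286 bp of T24H10.7i.1, had a pooled signal of 40.2 and rank 2064, with 27.5 and rank 1904 in replicate 1 and 15.4 and rank 2312 in replicate 2. II:9117806-9118145, at -447 bp of T24H10.7f.1, had a pooled signal of 40.4 and rank 2050, with 46.2 and rank 738 in replicate 1. Replicate 2 had no region overlapping this one. It listed II:9117400-9117719, at -863 bp of the same start, with a signal of 12.7 and rank 3553. Closer to this start each replicate listed a weak region, and these overlapped: II:9118095-9118450 at -150 bp, with 8.10 and rank 20667 in replicate 1, and II:9118210-9118529 at -53 bp, with 7.10 and rank 15645 in replicate 2.

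The start of T24H10.7b.1 had a pair of pooled regions. II:9116407-9116746, at -40 bp, had a pooled signal of 35.5 and rank 2510, with 24.8 and rank 2256 in replicate 1 and 12.1 and rank 4013 in replicate 2. II:9115667-9116006, at -780 bp, had a pooled signal of 36.9 and rank 2371, with 18.0 and rank 3945 in replicate 1 and 17.5 and rank 1793 in replicate 2. Their order thus differs between replicates. The region closer to the start holds the AP-1 site in capitals in the sequence before T24H10.7b.1.

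The other internal starts had weaker regions. II:9126974-9127313, at -193 bp of T24H10.7d.1, had a pooled signal of 26.7 and rank 3984, with 12 and rank 9230 in replicate 1 and 13.5 and rank 3029 in replicate 2. II:9128251-9128590, at -970 bp of T24H10.7e.1, had a pooled signal of 28.7, and 31.0 at rank 1549 in replicate 1. The replicate 2 region that overlapped it, with 5.99 at rank 22344, had its summit at II:9128211, outside the pooled region. II:9119425-9119764, at -595 bp of T24H10.7h.1, had a pooled signal of 28.6 and 23.0 in replicate 1, at rank 2586, and no overlapping region in replicate 2.

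All 16 pooled summits inside jun-1 fell in introns of T24H10.7a.1, as did the 21 of replicate 1 and the 14 of replicate 2, but these introns make up 92.3% of the gene. Its sixth intron of 7611 bp, in which T24H10.7d.1, T24H10.7e.1 and T24H10.7c.1 start, held 7 pooled summits. The first intron of 3422 bp held 4 and the second of 3279 bp held 3. Introns of 505 bp and 1384 bp held 1 each, and those of 749 bp and 665 bp held 0. Per kb of gene, jun-1 had 0.839 pooled summits, against a median of 0.160 over 998 genes of 10 kb or more, and 1.80% of these had as many. In replicate 1 the density was 1.10 per kb, against a median of 0.272, with 1.10% of genes as dense. In replicate 2 it was 0.734 per kb, against 0.200, with 2.81% as dense.

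Inside the gene the summits at internal starts had higher signals than the rest. In the pooled list, the 10 summits in a promoter window had signals of 14.9 to 45.6 with a median of 32.1, and the 6 others 12.8 to 18.4 with a median of 16.9. The medians were 20.5 for 12 summits at starts and 10.1 for 9 others in replicate 1, and 12.7 for 9 and 6.29 for 5 in replicate 2. The ranges overlapped in each list, and the difference was not tested, since regions of 1 gene are not replicates. The weakest pooled region near jun-1, II:9113578-9113917, lay in the first intron with a signal of 12.8, close to the lowest of the list, 12.5.

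**Figure D2:**
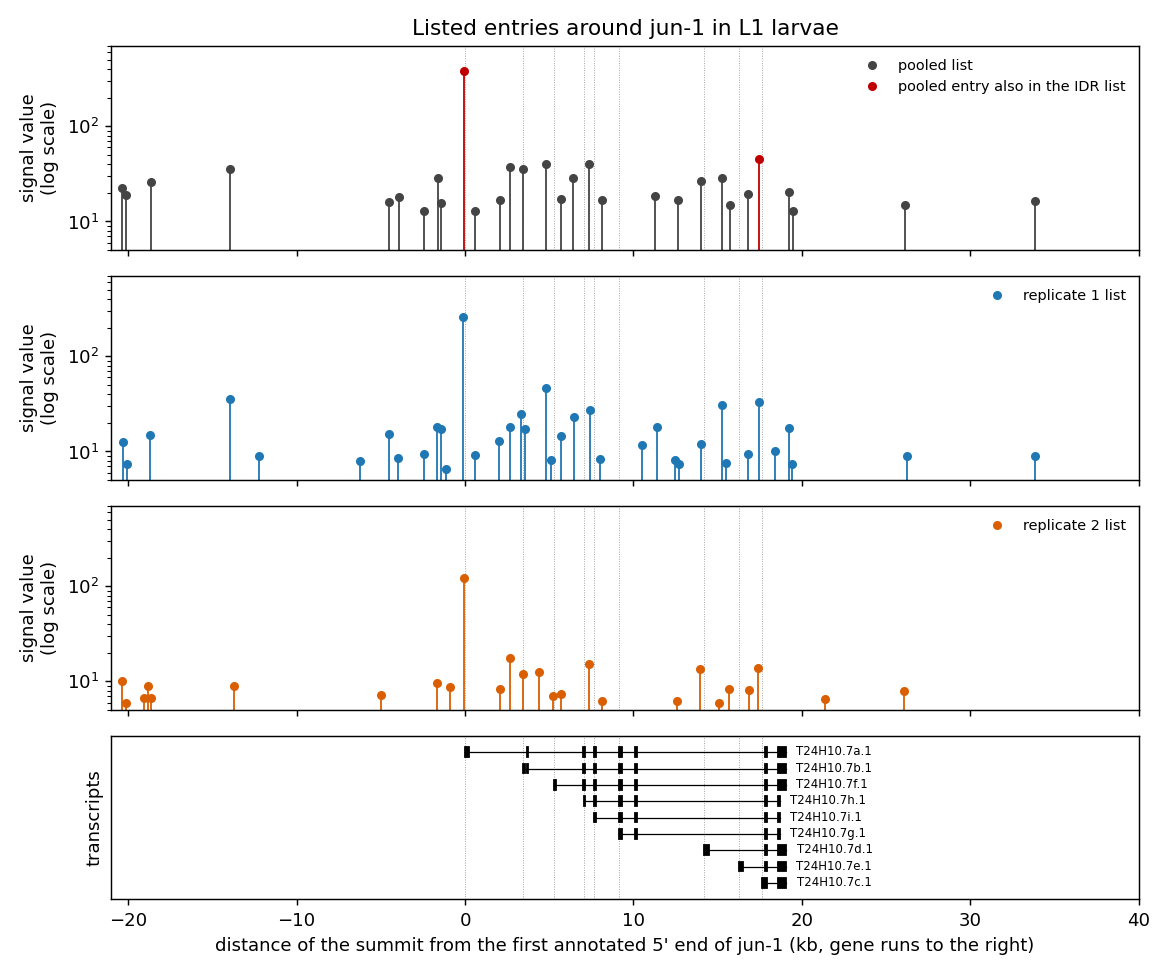
Listed regions around jun-1, placed by summit in kb from the first 5' end (horizontal axis), with their signal on a log scale (vertical axis) in the pooled list and in each replicate; red marks the 2 pooled regions also in the IDR list, dotted lines mark the 9 transcript starts and the bottom panel shows exons. The region at 0 kb, with a signal of 378, stands above all others, and the gene body is filled with weaker ones in both replicates.

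Outside the gene, 9 of the 29 pooled regions, the dominant one included, lay before jun-1 and 4 after it. Some lay at the starts of neighbours. The strongest besides the dominant one, II:9099026-9099365, was at -175 bp of T24H10.1, with a pooled signal of 35.5, and 35.9 and rank 1177 in replicate 1. The replicate 2 region that overlapped it, with 8.86 and rank 9006, had its summit outside the pooled region, at 51 bp of T24H10.1. The next by signal, II:9111359-9111698, lay at -1628 bp of jun-1, with a pooled signal of 28.5, 18.2 in replicate 1 and 9.59 in replicate 2. The remaining ones had pooled signals between 12.9 and 26.3. Their nearest starts were those of C07H4.1, dnj-23, T24H10.4, jun-1, C16D2.1, Y9C2UA.1 and W07A12.4. Of 13 protein-coding genes that overlap the jun-1 window, jun-1 included, 7 had a pooled summit in the promoter window of the gene, against 32.8% of all protein-coding genes, and only jun-1 had an IDR summit, against 7.65%. The next IDR region after the end of jun-1 had its summit 130158 bp away, near aqp-2, an aquaporin gene.

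The replicates shared many of the jun-1 regions but ranked them differently. All 29 pooled regions overlapped a region of replicate 1, against 82.6% of nuclear pooled regions, and 19 overlapped one of replicate 2, against 65.0%. The 19 found in both are 65.5% of the 29, against 50.9% of nuclear pooled regions. An overlap of 1 bp was enough, so the summits of matched regions could lie apart. II:9111359-9111698 and II:9111560-9111899 were matched to the same region of replicate 2. By rank as a share of the list, 14 of these 19 stood nearer the top in replicate 1 than in replicate 2, against 56.1% of nuclear pooled regions found in both. The lists differ in length, and by rank number the count was 12 of 19, against 44.8%.

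**Figure D3:**
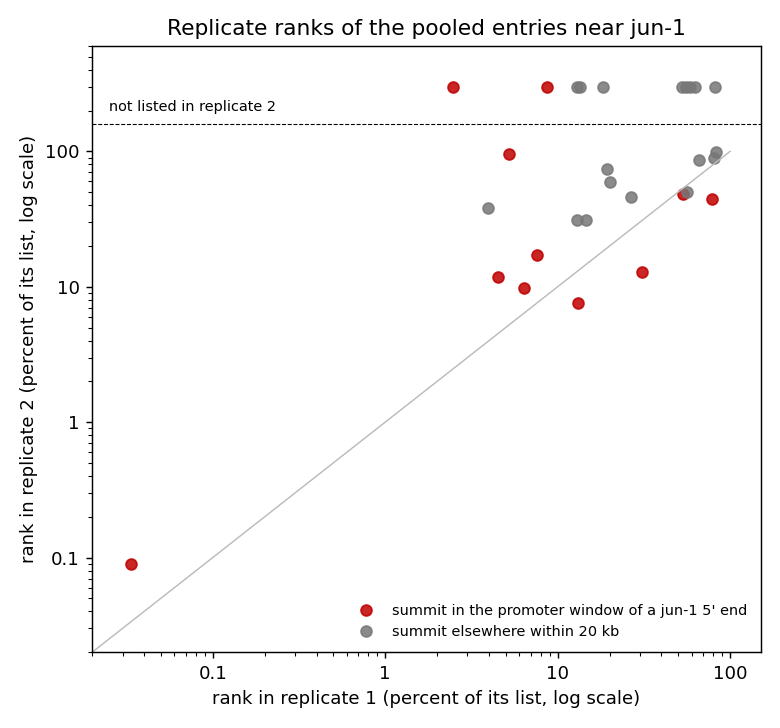
Rank of each of the 29 pooled regions near jun-1 in replicate 1 (horizontal axis) and replicate 2 (vertical axis), as a percent of the list on log scales, with the line of equal rank in grey; red points have their summit in the promoter window of a jun-1 start, and the 10 points above the dashed line have no overlapping region in replicate 2. The dominant region lies alone at 0.0336% and 0.0894%, and 14 of the 19 shared regions lie above the line, 12 of 19 when rank numbers are compared instead.

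At fos-1, none of the 4 lists had a summit inside the gene or in the promoter window of any of its 6 transcript starts. All of its introns were empty, including the first intron of F29G9.4a.1, the longest at 7430 bp. The single pooled region in the window, V:6033467-6033806, lay 17550 bp after the gene, inside dhs-17, a short-chain dehydrogenase gene. Its signal was 13.2 at rank 18334, near the bottom of the list. Replicate 1 listed it with 7.71 at rank 22545. Replicate 2 did not, and had a pair of other regions in dhs-17, V:6030404-6030723 with a signal of 13.4 at rank 3061, in the upper 13.0% of its list, and V:6031537-6031856 with 6.63 at rank 18353. No region near fos-1 was thus shared by the replicates.

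The empty stretch reached well beyond the gene. In the pooled list it ran from V:5975926 to V:6033466, 57.5 kb without a listed region, and was the 37th longest of 19399 gaps between neighbouring regions, so that 0.191% of gaps were as long, against a median gap of 2.25 kb. In replicate 1 the gap around fos-1 was also 57.5 kb, with 0.0802% of 27417 gaps as long. In replicate 2 it was 55.2 kb, with 0.0797% of 22577 as long. A share of gaps is not a share of genes, since a given gene is more likely to lie in a long gap. Of nuclear protein-coding genes, 3.15% had, like fos-1, no pooled region in a 40 kb window centred on the gene. The shares were 1.70% in replicate 1 and 0.916% in replicate 2. Gaps between the sparser IDR regions were longer, with a median of 29.9 kb, and 16.3% of them were as long as the 104 kb around fos-1. The nearest IDR regions were V:5939576-5939915, near syf-3, with a signal of 54.9 and a summit 63855 bp before the gene, and V:6043829-6044168, near cpi-2, a cystatin gene, with a signal of 79.5 and a summit 27912 bp after it.

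The pooled gap held 9 protein-coding genes: acy-2 (an adenylyl cyclase), dhs-16, C10F3.7, fut-8 (a fucosyltransferase), cpg-4, fos-1, rpt-2 (an ATPase of the proteasome), aps-1 and picc-1. At its left edge, acy-2 had a region at its start in every list but the IDR list: the pooled summit, with a signal of 18.2 at rank 8790, lay at -268 bp, that of replicate 1 at -227 bp and that of replicate 2 at -945 bp. The genes that overlap the fos-1 window are the same without acy-2 and with dhs-17, also 9. Of these, fos-1 included, 0 had a summit in the promoter window in the pooled, IDR or replicate lists, against 32.8% of all protein-coding genes in the pooled list. All but dhs-17 lie inside the pooled gap, so this count restates the gap. Listed regions covered 0.648% of the fos-1 window in the pooled list, against 15.8% of the jun-1 window and 6.76% of the nuclear genome. Genes of 10 kb or more with no pooled summit are not rare, at 17.5%, and 10.5% had none in replicate 1 and 8.32% none in replicate 2.

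A limit bears on the fos-1 locus, and on as much of the empty stretch as the transgene holds, which is not known here. Reads from the DNA of the transgene cannot be told apart in these lists from reads of the same DNA at its own place, and how the transgene bears on the calls there was not tested. A stretch with no listed region is one in which nothing passed the authors' calling, which does not show that FOS-1 was absent.

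**Figure D4:**
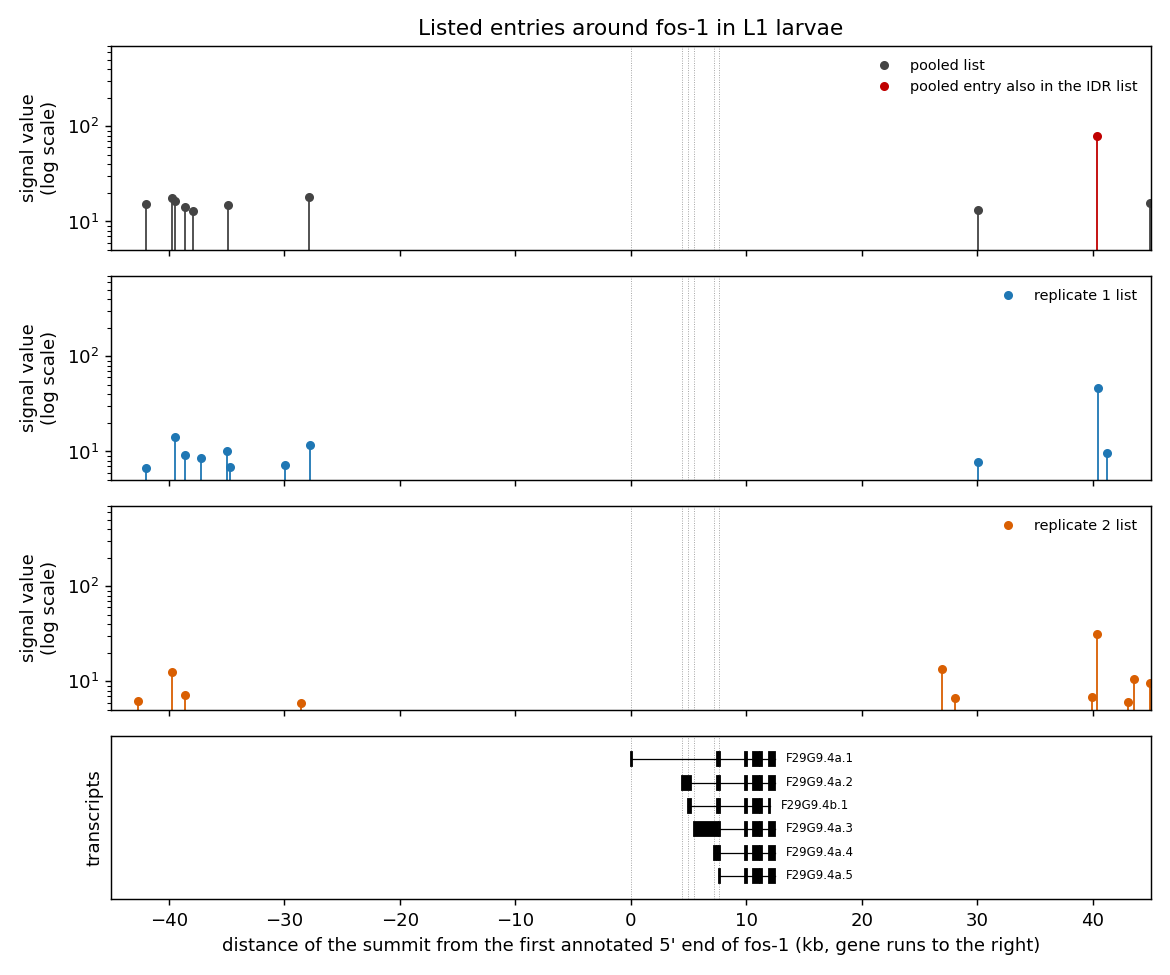
Listed regions around fos-1, placed by summit in kb from the first 5' end (horizontal axis), with their signal on a log scale (vertical axis) in the pooled list and in each replicate; red marks a pooled region also in the IDR list, dotted lines mark the 6 transcript starts and the bottom panel shows exons. No list has a region within 10 kb of the gene, and the nearest pooled region after it lies 17550 bp from its end.

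AP-1 sites were common at both genes, but the fos-1 window held almost no listed region in which they could lie. The jun-1 window held 15, or 2.54 per 10 kb, and the fos-1 window 9, or 1.71 per 10 kb, against 0.955 per 10 kb of nuclear genome. At jun-1, 9 of the 15 lay in a pooled region, and at fos-1, 0 of 9, against 11.2% of all 9580 nuclear AP-1 sites. In replicate 1 the counts were 9 at jun-1 and 0 at fos-1, against 15.1%, and in replicate 2, 5 and 0, against 11.1%. In the IDR list they were 1 and 0, against 1.45%. Pooled regions also cover more of the jun-1 window, 15.8%, than of the nuclear genome, 6.76%, and the part of this in the count was not tested. They cover 0.648% of the fos-1 window, so the 0 of 9 there restates the empty stretch and says nothing about the sites.

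AP-1 sites lay close to few of the jun-1 summits. The share was larger than in the genome, but it rests on 3 regions. The jun-1 window is also denser in AP-1 sites, with 2.54 against 0.955 per 10 kb, and the part of this in the share was not tested. Of the 29 pooled regions near jun-1, 3 had a site within 50 bp of the summit, against 1.94% of nuclear pooled regions and 3.85% of nuclear IDR regions. Each lay at an internal start: the site before T24H10.7h.1 began at -21 bp from the summit, that before T24H10.7b.1 at -28 bp and that before T24H10.7d.1 at -30 bp. All 3 are in capitals in the printed sequences. The sequence before T24H10.7d.1 holds a second site, and the pair begin at -223 and -126 bp of that start. The dominant region had a site 90 bp after its summit, just inside the transcript at 4 bp from the 5' end and so outside the printed bases. The second IDR region, before T24H10.7c.1, had none in its whole interval. Over whole intervals 6 of the 29 had a site, against 4.96% of nuclear pooled and 6.74% of nuclear IDR regions.

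The other words gave counts too small to set apart from the genome. Within 50 bp of the summit, GAGAGAG was found in 0 of 29, against 5.29% of nuclear pooled and 16.4% of nuclear IDR regions, although the printed bases before T24H10.7a.1, T24H10.7d.1 and T24H10.7c.1 each hold it farther off. CACGTG was found in 1, against 2.33% of nuclear pooled and 3.85% of nuclear IDR regions, and TGACGTCA in 0, against 0.639% of nuclear pooled and 0.963% of nuclear IDR regions. These are exact letter matches in a window, and the same letters can stand without any binding. The printed bases just after the dominant summit are mostly A and G, without the exact word GAGAGAG.

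The starts of fos-1 had AP-1 sites too. In the promoter windows, 4 of the 6 starts of fos-1 held at least 1, and 4 of the 9 of jun-1, against 11.8% of the starts of all protein-coding genes. At fos-1 these were 2 sites shared by overlapping windows. The first, printed above, began at -79 bp of F29G9.4a.2 and so at -577 bp of F29G9.4b.1. The other began at 97 bp of F29G9.4a.4 and so at -306 bp of F29G9.4a.5. For GAGAGAG the counts were 5 of 9 starts of jun-1 and 1 of 6 of fos-1, against 18.5% of all starts, and for CACGTG 2 of 9 and 0 of 6, against 18.8%. TGACGTCA was in no promoter window of either gene, against 6.17% of all starts. The third intron of F29G9.4a.1 held 3 copies of TGACTCA within 107 bp, V:6012274-6012380, also printed above. In the nuclear genome, 6 of 9580 AP-1 sites were the first of 3 that began within 150 bp, or 0.0626%, and this was 1 of them. None of these 6 places overlapped a region of the pooled, IDR or replicate lists; single AP-1 sites did so in 11.2% of cases in the pooled list, so 0 of 6 is not set apart from them. The group of 3 and its 150 bp limit were chosen after its positions were seen.

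Among other bZIP genes, jun-1 was 1 of several with a strong region at its start and fos-1 1 of many without. Of 29 bZIP genes found in the annotation, 8 had an IDR summit in the promoter window of the gene, against 7.65% of all protein-coding genes. Of these, cebp-1, a C/EBP factor of axon regeneration, had the highest signal, 688 at rank 2, and ranked 2 in both replicates; its summit lay at -742 bp. The dominant jun-1 region, with 378, came next. xbp-1, which drives part of the response to unfolded proteins, had a signal of 170 at rank 115, with ranks 133 and 109 in replicates 1 and 2. zip-4 had 107 at rank 332, with ranks 343 and 295. These 4 genes stood at rank 343 or nearer the top in both replicates.

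The other 4 had lower signals. cebp-2, a second C/EBP factor, had 65.3, at rank 654 in replicate 1 and 1444 in replicate 2. crh-1, the worm CREB, had 59.2, at ranks 700 and 2611. atf-4 had 55.3, at ranks 1197 and 2162, and zip-11 had 42.9, at ranks 1905 and 2832. The other 21, fos-1 among them, had no IDR summit at the start. Of all 29, 17 had a pooled summit there, against 32.8% of all protein-coding genes. With the 1895 regions of highest signal in replicate 1 in place of the IDR list, 8 had a summit, against 7.35%, and in replicate 2, 5, against 7.37%. The 8 of replicate 1 were not the same set, since zip-11 dropped out and a gene without an IDR summit came in.

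Genes of the MAP kinase pathways, which hold the kinases that act on Jun and Fos proteins and some of their regulators, had IDR summits about as often as other genes. Of 20 such genes, 2 had one, against 7.65% of all protein-coding genes, and 15 had a pooled summit, against 32.8%. kgb-1, a Jun-kinase-like gene of the stress response, had a signal of 92.2, at rank 406 in replicate 1 and 940 in replicate 2, but its summit lay closer to the start of T07A9.12. pmk-2, a p38 kinase, had 51.4, and its rank parted between the replicates, with 825 in replicate 1 and 8573 in replicate 2. Both lists were drawn up with earlier results of these data known, so their counts are a description.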

How the data were processed

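Text files deposited with the lists say that both replicates were called against 1 control file, that the pooled list used the reads of both, and that the IDR list was drawn from the other 3. The aligner, the peak caller, its settings and the IDR threshold were not given in the sources used here. As deposited, the signal of each entry (column 7) is the authors' own value and was used unchanged, and depth is unknown. The deposited −log10 q values are capped, at 3.63 in the pooled list for 2133 entries, so they did not rank entries. Summits are the start plus the offset that the authors deposited, written 1-based. The lists use build ce11 (WBcel235); those on ce10 were not used here.

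Gene models were Ensembl release 115, and sequence was RefSeq's WBcel235. An entry belonged to a gene's window by at least 1 bp of overlap. Pooled entries were matched to replicate entries in the same way, with the nearest summit taken where several overlapped. Otherwise entries were placed by summit. Window counts were checked against bedtools 2.31.1, and the counting was tested on simulated data. Python 3.11.15, numpy 2.4.6, pandas 2.3.3 and matplotlib 3.10.9 were used. With 2 replicates of 1 group, no test was made, and shares over all genes, starts, gaps or sites stand as background. Alternatives covered flanks, windows, motif distance, the IDR entries of higher signal and each replicate alone. The genes, lists and alternatives were chosen with earlier results of these data known. Genes named are fos-1 and jun-1, the gene nearest each pooled entry near them, and the members of both lists with an IDR summit. Also named are genes nearest the flanking IDR entries, and T07A9.12, whose start lay closer to the kgb-1 summit. Genes nearest to entries of a replicate alone were not all named. The genes between the entries around fos-1 were named after their values were seen.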

Additional observations from a re-analysis of the deposited data

How the results depend on the processing

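Of 45 alternative values, 30 stayed close to the value given and 15 moved. No paired analysis was possible because the study has a single group. The pooled count around fos-1 was 0 with 10 kb flanks, 11 with 40 kb flanks and 1 to 2 with either replicate alone, against 1. The share of genes with as few was 3.15% in fixed 40 kb windows, 11.6% among genes of the same chromosome and 27.2% with 40 kb flanks, against 6.62%. The share of genes with as many as jun-1 was 0.275% in fixed windows, 0.0401% with 10 kb flanks and 1.65% with 40 kb flanks, against 0.165%; the shares at these flanks were added after seeing the data. The 947 IDR regions of highest signal held 1 IDR summit near jun-1, and either replicate alone gave 2 to 5, against 2. With the gene's first 5' end alone, jun-1 had 1 start with an IDR summit, against 2. AP-1 sites were found in 1 jun-1 region within 25 bp of the summit and in 6 over the whole interval, against 3. Either replicate alone gave 5 to 8 bZIP genes, against 8. The cause of these shifts was not tested. The lists hold no read counts, so depth cannot set an error on any signal, and replicate agreement is known by rank and overlap only.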
